A study of Sus scrofa with 6 samples.

Results

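The dystrophin glycoprotein complex of pig longissimus dorsi muscle was followed through 8 genes, found by symbol: *DMD*, *UTRN*, *DAG1*, *SGCA*, *SGCB*, *SGCD*, *DTNA* and the laminin chain *LAMA2*. Of these, 5 were found among the 30476 genes of the counts table, and all 5 passed the filter on low counts. *SGCB*, *SGCD* and *LAMA2* had no identifier under their symbol in the table and were not analysed here. Between the genotypes none of the 5 measured members differed beyond the spread between pigs, and within a group single members varied more than the groups differed.

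Dystrophin is a long rod-like protein under the muscle fibre membrane, the sarcolemma. It ties the actin cytoskeleton to β-dystroglycan in the membrane. α-dystroglycan, cut from the same precursor, binds laminin in the basement membrane through a sugar chain that is built on it in the endoplasmic reticulum and the Golgi. Sarcoglycans and sarcospan brace this link sideways in the membrane, and dystrobrevin and the syntrophins hold signalling proteins on its inner side. Loss of single components causes muscular dystrophies, the best known being Duchenne muscular dystrophy, which is caused by mutations of *DMD*.

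The libraries came from longissimus dorsi, the long back muscle, of 3 UCP1 KI pigs and 3 WT pigs, all 6 months old, with 1 mRNA library per pig. The knock-in is labelled as adipocyte-specific, so that the muscle fibres are not the cells meant to carry active UCP1, the uncoupling protein that lets mitochondria turn fuel into heat. The study asked how the muscle transcriptome differs when adipose tissue carries UCP1. Neither the sex of the pigs, nor whether they were littermates, nor whether they came from 1 founder is given in the sources used here. *UCP1* itself had no identifier under its symbol, so the genotype could not be checked in the counts. The study reports that muscle of neither genotype had detectable *UCP1* mRNA, so muscle counts of *UCP1* would not be a check of genotype.

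The libraries held between 30220951 and 35066624 counts. The 20 most abundant genes took 39.0% to 44.0% of the counts in the knock-in pigs against 44.5% to 56.5% in the controls, with the highest share in WT replicate 2. Levels are given as counts per 1e+06 counts (CPM) of the scaled library, in which the smallest dependable amount, 3 counts, was worth 0.0795 to 0.1096 CPM, and this floor covers counting error only. A gene was called where edgeR's quasi-likelihood test gave an unadjusted p under 0.05 and the log2 fold change was beyond 0.5. By this rule 1097 of 13402 genes tested (8.19%) were called, 3.84% as higher in the knock-in and 4.34% as lower, and none (0%) had an adjusted p under 0.05. Without adjustment 1100 genes were under 0.05 with edgeR, and DESeq2 put 127 genes under an adjusted p of 0.05. Of 14 fibre markers listed, 7 were measured, and they summed to 54620 to 96597 CPM in the knock-in pigs and 76874 to 115316 CPM in the controls. All 7 had a fitted difference below 0, with a median log2 fold change of -0.21 against -0.02 for all genes. None of the 7 was called, where 8.19% of all genes were.

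None of the 5 measured members was called, by edgeR or by DESeq2, against 8.19% of all genes tested, and none was under an unadjusted p of 0.05. None had 3 UCP1 KI values clear of the 3 WT values, a pattern shown by 15.3% of all genes tested. The fitted difference was above 0 for 4 members and below 0 for *DMD*, with a median log2 fold change of 0.25 against -0.02 for all genes. Without WT replicate 2 the median of the members was -0.11, so its sign rested on that pig. With scaling by library size alone it was 0.55, and the median of all genes then moved to 0.24. In a design of 3 pigs against 3 pigs the exact permutation test cannot give a p under 0.1.

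**Figure D1:**
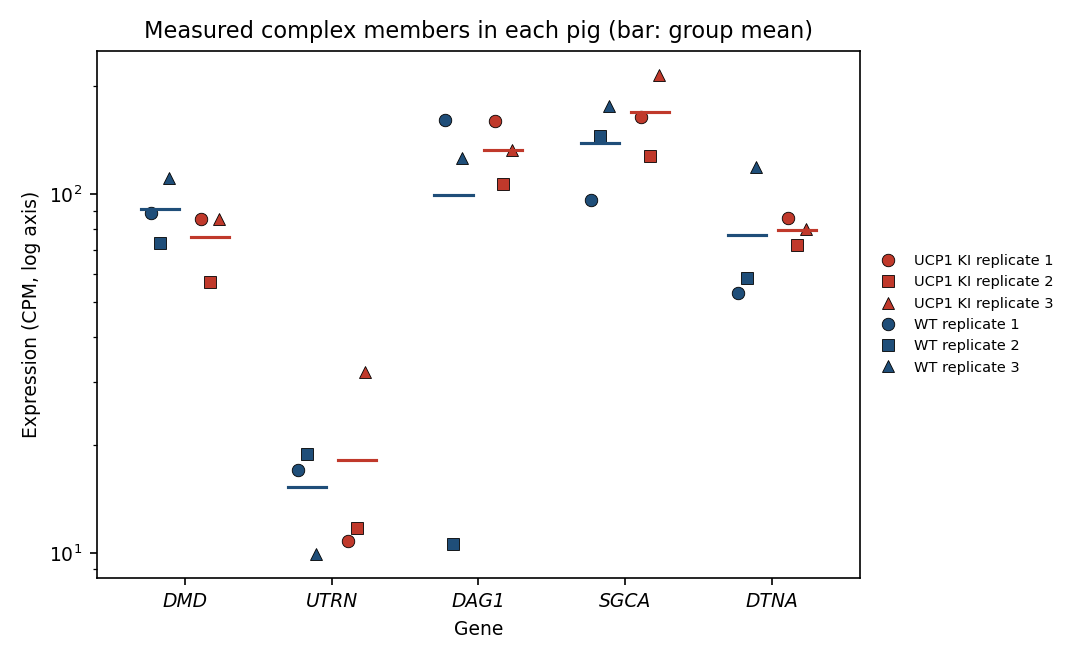
Expression of the 5 measured members in CPM (log axis) by gene, with red points for UCP1 KI pigs, blue points for WT pigs, marker shape for the replicate and bars for the group means. The genotypes overlap for every gene, and the *DAG1* value of WT replicate 2 (10.6 CPM) stands far below the other 5.

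*DMD* (ENSSSCG00000028148) encodes dystrophin and lies on chromosome X in the Sscrofa11.1 assembly, where the RefSeq gene runs from 27028223 to 29650728. It was measured at 85.1, 57.1 and 85.5 CPM in UCP1 KI replicates 1 to 3 and at 88.9, 73.0 and 111 CPM in WT replicates 1 to 3. The lowest pig was UCP1 KI replicate 2 and the highest was WT replicate 3, and the other UCP1 KI pigs lay between WT values. UCP1 KI pigs averaged 75.9 ± 16.3 CPM and WT pigs 91.1 ± 19.2 CPM (SD, n = 3 each), a log2 fold change of -0.26 with a standard error of 0.27 and a 95% interval from -0.90 to 0.37. edgeR's quasi-likelihood test gave an adjusted p of 0.811. This interval leaves room for a decrease as large as 0.90 and for an increase of 0.37 on the log2 scale, so no difference was detectable with 3 pigs per group. Scaling by library size alone gave a log2 fold change of -0.033.

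Because *DMD* is X-linked and the sex of the pigs is not given, the Y-linked genes were read beside it. Of the 8 Y-linked genes listed, 2 were measured. Their summed level was 22.8 to 30.7 CPM in UCP1 KI pigs and 20.8 to 30.6 CPM in WT pigs, and the groups overlapped. The part of sex in the *DMD* values was not tested.

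*UTRN* (ENSSSCG00000004123) encodes utrophin, the autosomal relative of dystrophin, which in adult fibres is concentrated at neuromuscular and myotendinous junctions and is also made in vessels. Its RefSeq gene spans 20514264 to 21047927 on chromosome 1. Its level was 10.8, 11.8 and 31.9 CPM in UCP1 KI replicates 1 to 3 and 17.0, 18.9 and 9.94 CPM in WT replicates 1 to 3. One UCP1 KI pig, replicate 3, stood above all others, while the remaining UCP1 KI pigs lay between the lowest WT pig and the others. The means were 18.2 ± 11.9 CPM for UCP1 KI and 15.3 ± 4.73 CPM for WT (SD, n = 3 each). Its log2 fold change was 0.25 with a standard error of 0.47 and a 95% interval from -0.85 to 1.34, and edgeR's adjusted p was 0.899. The direction rested on that 1 pig: without UCP1 KI replicate 3 the log2 fold change was -0.44.

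*DAG1* (ENSSSCG00000034357) encodes the precursor of both dystroglycan subunits, and its RefSeq gene spans 32028019 to 32092450 on chromosome 13. It was measured at 160.2, 107 and 133 CPM in UCP1 KI replicates 1 to 3 and at 161, 10.6 and 126 CPM in WT replicates 1 to 3. These levels rest on 4955, 3809 and 5005 counts in the UCP1 KI pigs and on 5839, 291 and 3782 counts in the WT pigs. WT replicate 2 stood 10.1-fold below the next lowest pig, and the other 5 pigs lay within a narrow band that held both genotypes. UCP1 KI pigs averaged 133 ± 26.7 CPM and WT pigs 99.3 ± 78.7 CPM (SD, n = 3 each). For *DAG1* the log2 fold change was 0.42 with a standard error of 0.78 and a 95% interval from -1.38 to 2.23, the widest of the 5 members, and edgeR's adjusted p was 0.895. Without WT replicate 2 the log2 fold change was -0.11 with a standard error of 0.30.

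*SGCA* (ENSSSCG00000017583) encodes α-sarcoglycan, the sarcoglycan that is largely restricted to striated muscle, and its RefSeq gene spans 26356691 to 26368561 on chromosome 12. The level was 165, 128 and 215 CPM in UCP1 KI replicates 1 to 3 and 96.3, 145 and 176 CPM in WT replicates 1 to 3. The highest pig was a UCP1 KI pig and the lowest a WT pig, with overlap between them. The means were 169 ± 44.0 CPM for UCP1 KI and 139 ± 40.1 CPM for WT (SD, n = 3 each), and the log2 fold change was 0.28 with a standard error of 0.32 and a 95% interval from -0.45 to 1.02. edgeR's adjusted p was 0.824.

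*DTNA* (ENSSSCG00000028047) encodes α-dystrobrevin, which binds dystrophin and the syntrophins, and its RefSeq gene spans 118333069 to 118753516 on chromosome 6. UCP1 KI replicates 1 to 3 had 85.9, 72.0 and 80.2 CPM and WT replicates 1 to 3 had 53.1, 58.3 and 119 CPM. The UCP1 KI pigs lay close together, between a low pair of WT pigs and the high WT replicate 3. Group means were nearly equal at 79.3 ± 6.999 CPM for UCP1 KI and 76.9 ± 36.9 CPM for WT (SD, n = 3 each). A log2 fold change of 0.04 was fitted, with a standard error of 0.34 and a 95% interval from -0.75 to 0.84, and edgeR's adjusted p was 0.977. Without WT replicate 3 the groups no longer overlapped and the log2 fold change was 0.51, whereas it was -0.01 without UCP1 KI replicate 1, -0.16 when WT replicate 1 was left out and -0.12 when WT replicate 2 was.

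The balance between members within a pig was read as the number of reads per 100 *DMD* reads, a quantity that does not depend on the scaling of the library. It compares a gene with itself across pigs, since read numbers of genes of different length do not give relative amounts of transcript. For *SGCA* it was 193, 224 and 252 in UCP1 KI replicates 1 to 3 and 108, 198 and 158 in WT replicates 1 to 3. The means were 223 ± 29.2 (SD, n = 3) and 155 ± 45.2 (SD, n = 3), with the groups overlapping through UCP1 KI replicate 1 and WT replicate 2, and the 2-sided exact permutation test gave p = 0.2. For *DAG1* the same quantity was 188, 187 and 155 in the knock-in pigs and 181, 14.6 and 113 in the controls (exact permutation p = 0.2), so the low *DAG1* of WT replicate 2 was also low against dystrophin of the same library. *DTNA* gave 93.7 to 126 in UCP1 KI pigs against 59.7 to 107 in WT pigs (exact permutation p = 0.3). *UTRN* gave 12.7 to 37.3 against 8.94 to 25.9 (exact permutation p = 0.6). Adjusted over these 4 ratios, the exact p-values were 0.4 for *SGCA*, *DAG1* and *DTNA* and 0.6 for *UTRN*.

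The genes whose levels followed *DMD* most closely over the 6 pigs were found among 11302 genes with a symbol as those with the smallest root mean square difference of centred log2 CPM. They were *PDE4C* (0.05), *ATXN1* (0.07), *MRS2* (0.08), *ATP5F1A* (0.08) and *IDH3B* (0.08), where *DMD* itself varied about its own mean by 0.29 on the same scale. *PDE4C*, a cyclic AMP phosphodiesterase, was measured at 37.6, 25.6 and 39.1 CPM in UCP1 KI replicates 1 to 3 and 41.8, 35.5 and 50.3 CPM in WT replicates 1 to 3, with its lowest and highest pigs the same as for *DMD*. These are the best of many genes over 6 pigs and are given as a description.

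The rest of the complex and its surroundings were read from 65 partner genes listed by role, of which 55 were in the table and 51 were tested. Of these 51, 5 were called (9.80%, against 8.19% of all genes), 2 higher and 3 lower in UCP1 KI pigs, and none had an adjusted p under 0.05. The groups did not overlap for 9 of the 51 genes, 3 higher and 6 lower in UCP1 KI pigs, where 15.3% of all genes showed no overlap and 7.69% did so with UCP1 KI pigs lower. The 10 listed genes with no identifier under their symbol, among them *DTNB*, *SNTG2*, *GMPPB*, *DPM3*, *CAV3*, *SYNM* and *KRT19*, were not analysed here, while *SGCZ*, *SNTG1*, *LAMA1* and *LARGE2* did not pass the filter on low counts.

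**Figure D2:**
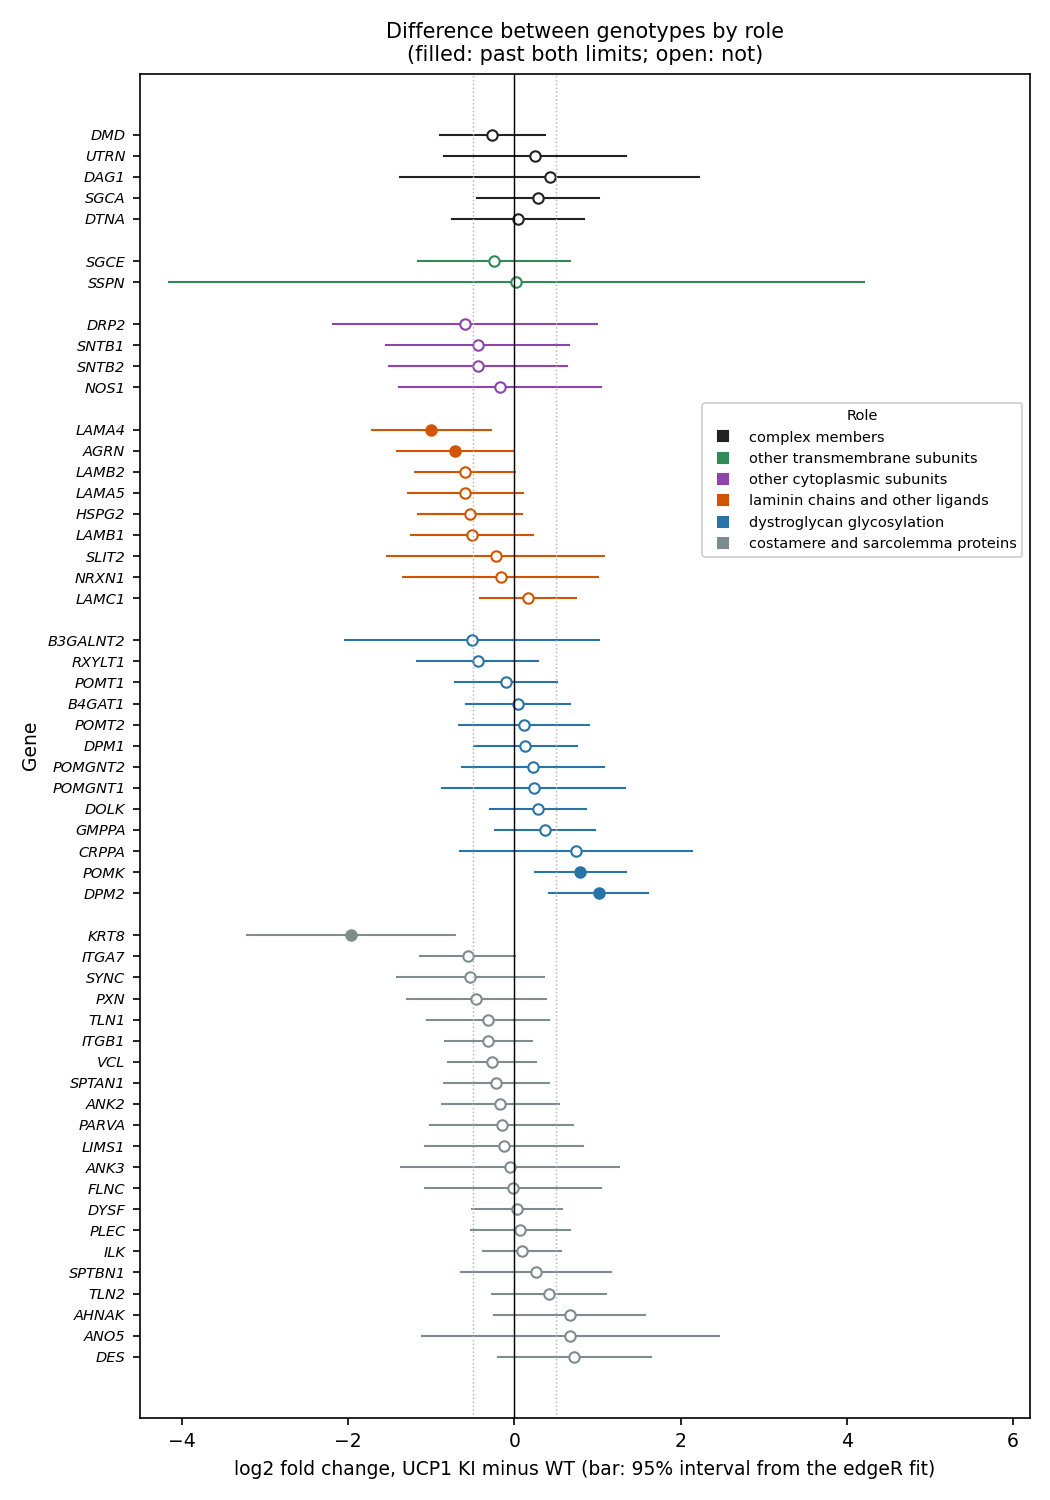
Log2 fold change (UCP1 KI minus WT) of the 5 members and 49 of the partner genes tested, grouped by role, with 95% intervals as bars, filled points for called genes and dotted lines at the fold change limit. The 5 filled points are *LAMA4*, *AGRN* and *KRT8* below 0 and *POMK* and *DPM2* above 0, and *SSPN* has the widest interval, from -4.16 to 4.21.

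Among the other transmembrane subunits, *SSPN* and *SGCE* were tested and neither was called. *SSPN* (ENSSSCG00000025531) encodes sarcospan, a tetraspan protein bound to the sarcoglycans. It had 1628, 1 and 1985 counts in UCP1 KI replicates 1 to 3 and 1931, 1370 and 5 counts in WT replicates 1 to 3. UCP1 KI replicate 2 and WT replicate 3 were thus almost without *SSPN* reads, while the other 4 pigs lay between 50.03 and 53.2 CPM. Its fitted log2 fold change of 0.02 had a standard error of 1.80. *SGCE* (ENSSSCG00000015328), which encodes the widely made ε-sarcoglycan, was measured at 2.75, 2.72 and 3.95 CPM in UCP1 KI pigs and 4.44, 4.64 and 2.07 CPM in WT pigs. The groups overlapped, with a log2 fold change of -0.24 and a standard error of 0.39.

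All 4 cytoplasmic partners tested had a fitted difference below 0, with a median log2 fold change of -0.44, and none was called. This shared sign depended on single pigs, since *SNTB1* was at 0.16 without WT replicate 3 and *NOS1* was at 0.13 without the same pig and at 0.044 without WT replicate 1. *SNTB1*, which encodes β1-syntrophin, had a log2 fold change of -0.44 with a standard error of 0.47 and ranged from 14.6 to 33.4 CPM in UCP1 KI pigs and from 19.0 to 58.3 CPM in WT pigs. *SNTB2*, which encodes β2-syntrophin, had -0.43 with a standard error of 0.46, over 2.49 to 5.22 CPM and 2.37 to 6.17 CPM. The groups overlapped for both syntrophins. *NOS1*, the neuronal nitric oxide synthase that is held at the sarcolemma by the complex, ranged from 1.91 to 2.60 CPM and from 0.840 to 3.30 CPM, and its log2 fold change was -0.17 with a standard error of 0.52. *DRP2*, a short relative of dystrophin, was low, with 7 to 30 counts per UCP1 KI pig and 12 to 33 per WT pig, and its log2 fold change was -0.60 with a standard error of 0.68.

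On the outer side, laminin chains and other extracellular ligands included 2 genes that were called lower in UCP1 KI pigs. Of the 9 genes tested, 8 had a fitted difference below 0, with a median log2 fold change of -0.53, and none was called higher, where 4.34% of all genes were called lower. With scaling by library size alone their median was -0.30, where all genes had 0.24, and *LAMA4* alone was called. *LAMA4* (ENSSSCG00000004425), which encodes the laminin α4 chain of vessel walls and other basement membranes, was measured at 21.5, 14.6 and 14.9 CPM in UCP1 KI replicates 1 to 3 and 40.5, 38.9 and 22.4 CPM in WT replicates 1 to 3. All UCP1 KI pigs lay below all WT pigs, though WT replicate 3 came close to UCP1 KI replicate 1. The means were 17.0 ± 3.94 CPM for UCP1 KI and 33.9 ± 10.02 CPM for WT (SD, n = 3 each). This gave a log2 fold change of -0.998, with a standard error of 0.31, and edgeR gave an unadjusted p of 0.0126 and an adjusted p of 0.583. *LAMA4* was called without each of the 6 pigs in turn, though some of these fits lay close to the limit. edgeR's unadjusted p rose to 0.0492 without UCP1 KI replicate 2, and it was 0.0485 with scaling by library size alone.

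*AGRN* (ENSSSCG00000022204) encodes agrin, which binds α-dystroglycan and organises the neuromuscular junction. It was measured at 10.4, 16.2 and 11.9 CPM in UCP1 KI replicates 1 to 3 and 26.7, 21.3 and 15.1 CPM in WT replicates 1 to 3. The groups overlapped through UCP1 KI replicate 2 and WT replicate 3. The log2 fold change was -0.72 with a standard error of 0.30, and edgeR gave an unadjusted p of 0.0449 and an adjusted p of 0.603. *AGRN* was close to the limit and was called in only 2 of the 6 fits that left out 1 pig, where UCP1 KI replicate 2 or WT replicate 3 was the pig left out. It was also not called with scaling by library size alone, where its log2 fold change was -0.46.

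The next 3 ligand genes were singled out after their values were seen. *LAMB2*, which encodes the laminin β2 chain of junctions and vessels, was measured at 84.7, 67.4 and 100.3 CPM in UCP1 KI pigs and 134, 145 and 101.5 CPM in WT pigs. The groups did not overlap, by a margin of about 1 CPM between UCP1 KI replicate 3 and WT replicate 3. Its log2 fold change was -0.59 with a standard error of 0.26, which edgeR did not call (unadjusted p 0.0535, adjusted p 0.610) and DESeq2 did. Scaled by library size alone it was -0.33 and the groups overlapped. *HSPG2*, which encodes perlecan, had a log2 fold change of -0.53 with a standard error of 0.27, over 149 to 171 CPM in UCP1 KI pigs and 165 to 284 CPM in WT pigs. *LAMC1*, the γ1 chain shared by most laminins, had 0.17 with a standard error of 0.25.

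**Figure D3:**
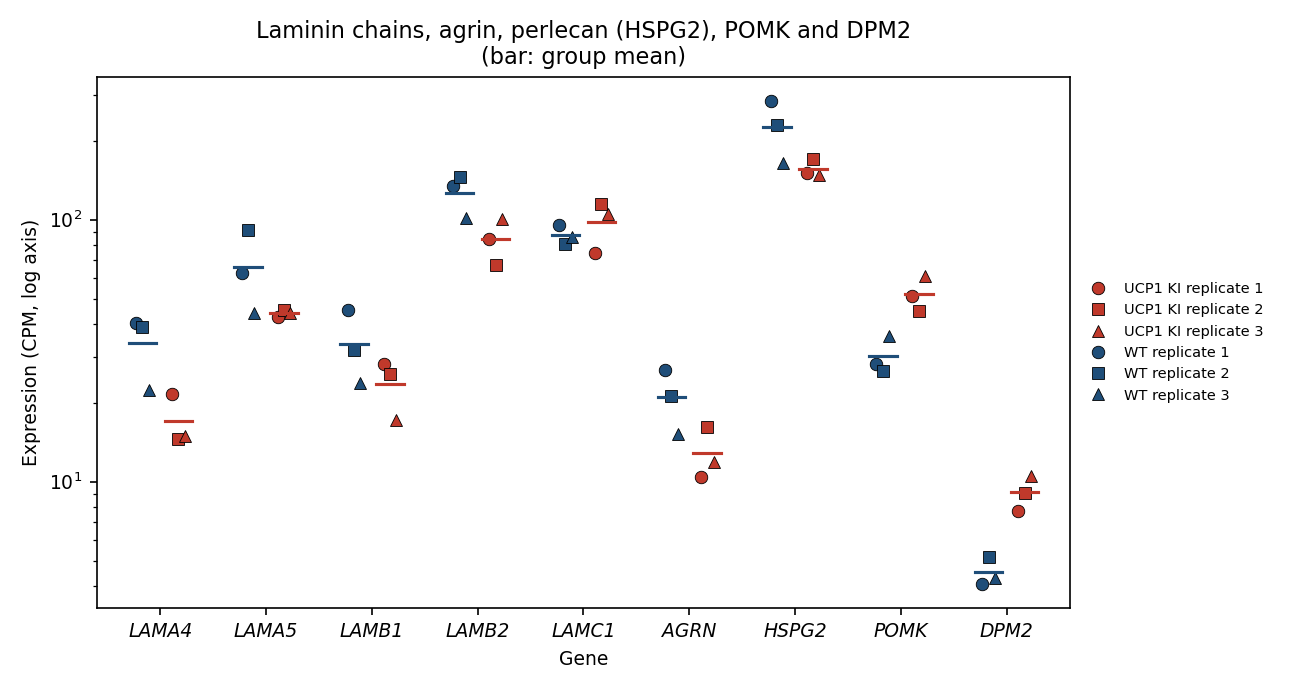
Expression in CPM (log axis) of 5 laminin chains, agrin, perlecan (*HSPG2*), *POMK* and *DPM2* in each pig, with red points for UCP1 KI pigs, blue points for WT pigs, marker shape for the replicate and bars for group means. *LAMA4* is lower in all 3 UCP1 KI pigs than in any WT pig, *POMK* and *DPM2* are higher in all 3, and the WT pigs of *LAMA4*, *AGRN* and *HSPG2* spread widely.

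Laminins, agrin and perlecan are also made by vessel and connective tissue cells, and some markers of such cells were also called lower, where 4.34% of all genes were. All 10 smooth muscle and pericyte markers had a fitted difference below 0, with a median log2 fold change of -0.84, and 2 of them, *NOTCH3* and *ABCC9*, were called lower. Their summed level was 374 to 521 CPM in UCP1 KI pigs and 492 to 983 CPM in WT pigs. Of 11 fibroblast markers measured, 5 were called lower (*LUM*, *COL1A1*, *COL1A2*, *COL3A1* and *FAP*), and the summed level of the 11 was 305 to 489 CPM against 788 to 1270.4 CPM, without overlap. The 8 of them that are not collagens summed to 188 to 189.6 CPM and 189.2 to 278 CPM, and overlapped. *PDGFRA* (-0.08), *DPT* (0.17) and *FBLN1* (0.10) lay near 0 in log2 fold change. The 9 endothelial markers tested had a median log2 fold change of 0.06 with 1 called higher, and summed to 445 to 807 CPM and 423 to 773 CPM. The 7 Schwann cell markers tested included none that was called, and summed to 66.3 to 70.9 CPM and 65.0 to 89.4 CPM. Of 6 leukocyte markers tested, all 6 had a fitted difference above 0 and 2, *CD3E* and *CD2*, were called higher, against 3.84% of all genes. The groups overlapped for every leukocyte marker tested, where 15.3% of all genes showed no overlap. For *CD3E* (1.03 CPM) and *CD2* (0.715 CPM), UCP1 KI replicate 3 lay within the WT range. Of 5 adipocyte markers tested, *LIPE* was called higher and the other 4 had a fitted difference below 0 (median of the list -1.13 in log2 fold change). None of the 6 satellite cell markers and 2 red cell markers was called by edgeR, while DESeq2 called 1 red cell marker, *HBB*, as lower, at a log2 fold change of -1.29 in the edgeR fit and without overlap between the groups. In a whole-tissue sample fewer cells of a type and less RNA per cell cannot be told apart, and the part of these cells in the ligand values was not tested.

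The laminin-binding sugar chain of α-dystroglycan is built by a series of enzymes. Of 15 genes of this group tested, 11 had a fitted difference above 0, with a median log2 fold change of 0.23, and 2 were called higher and none lower, against 3.84% of all genes called higher. With scaling by library size alone their median was 0.50, where all genes had 0.24. *POMK* (ENSSSCG00000031510), the kinase that phosphorylates the core mannose of the chain, was measured at 51.3, 44.8 and 60.7 CPM in UCP1 KI replicates 1 to 3 and 28.2, 26.4 and 35.8 CPM in WT replicates 1 to 3. Every UCP1 KI pig lay above every WT pig. The means were 52.3 ± 8.02 CPM for UCP1 KI and 30.2 ± 5.002 CPM for WT (SD, n = 3 each), the log2 fold change was 0.79 with a standard error of 0.24 and a 95% interval from 0.24 to 1.34, and edgeR gave an unadjusted p of 0.0107 and an adjusted p of 0.583.

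*DPM2* (ENSSSCG00000032481) encodes a subunit of the synthase that makes dolichol-phosphate-mannose, the mannose donor of this chain and of other glycans. Its level was 7.73, 9.09 and 10.5 CPM in UCP1 KI replicates 1 to 3 and 4.08, 5.15 and 4.30 CPM in WT replicates 1 to 3. Again every UCP1 KI pig lay above every WT pig. The means were 9.11 ± 1.39 CPM for UCP1 KI and 4.51 ± 0.564 CPM for WT (SD, n = 3 each), the log2 fold change was 1.01 with a standard error of 0.26, and edgeR gave an unadjusted p of 0.00469 and an adjusted p of 0.583. *DPM1*, the catalytic subunit of the same enzyme, was added after its values were seen and had a log2 fold change of 0.13 with a standard error of 0.27. *POMK* and *DPM2* were each called without each of the 6 pigs in turn. In these fits edgeR's unadjusted p rose to 0.0421 for *POMK* (without WT replicate 2) and to 0.0168 for *DPM2* (without UCP1 KI replicate 3).

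Of 21 costamere and other sarcolemma proteins tested, 8 had a fitted difference above 0 and 13 below 0, with a median log2 fold change of -0.12, and 1 was called (4.76%, against 8.19% of all genes). With scaling by library size alone 14 were above 0 and 7 below 0, and their median of 0.08 was again below that of all genes, 0.24. The called gene was *KRT8* (ENSSSCG00000000252), a keratin of the costamere that is mainly known from epithelia. It had 16, 9 and 28 counts in UCP1 KI replicates 1 to 3 and 56, 77 and 48 counts in WT replicates 1 to 3. All UCP1 KI pigs lay below all WT pigs, at a low level of 0.504 ± 0.245 CPM against 1.99 ± 0.716 CPM (SD, n = 3 each). The log2 fold change was -1.97 with a standard error of 0.54, and edgeR gave an unadjusted p of 0.00689 and an adjusted p of 0.583. *ITGA7*, the α chain of the muscle laminin receptor that works beside dystroglycan, was singled out after its values were seen. It was measured at 121, 100.6 and 83.3 CPM in UCP1 KI pigs and 169, 149 and 131 CPM in WT pigs, with no overlap, and its log2 fold change of -0.56 with a standard error of 0.25 was not called by edgeR (unadjusted p 0.0544, adjusted p 0.610) and was called by DESeq2. Scaled by library size alone it was -0.33 and its groups overlapped. *DES*, which encodes the intermediate filament protein desmin and was also added after its values were seen, was at 7065, 9113 and 4616 CPM in UCP1 KI pigs and 5045, 3321 and 4226 CPM in WT pigs, with overlap. Its log2 fold change of 0.72 with a standard error of 0.40 was not called by edgeR, and it was called higher by DESeq2 and, at 0.95, with scaling by library size alone. *DYSF*, which encodes the membrane repair protein dysferlin and was likewise added after its values were seen, had a log2 fold change of 0.03 with a standard error of 0.23.

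Single low pigs like that of *DAG1* were uncommon. Of 1716 genes with a median level of at least 50 CPM, 28 (1.63%) had 1 pig at least 5-fold below every other pig. The low pig was WT replicate 2 for 10 of them, UCP1 KI replicate 2 for 7, UCP1 KI replicate 3 and WT replicate 1 for 5 each, and UCP1 KI replicate 1 for 1. *SSPN* was counted among them through UCP1 KI replicate 2, but its gap lay between 1 and 5 counts and both pigs were low. Beside *DAG1* this group held *ANO5*, which encodes a membrane protein whose loss causes a limb-girdle muscular dystrophy and which was named after its values were seen.

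*ANO5* was measured at 48.8, 69.1 and 85.3 CPM in UCP1 KI replicates 1 to 3 and at 62.0, 4.75 and 60.6 CPM in WT replicates 1 to 3. WT replicate 2 was again the low pig, 10.3-fold below the next. The log2 fold change of *ANO5* was 0.67 with a standard error of 0.77, and 0.14 without WT replicate 2. *DMD*, *SGCA* and *DTNA* showed no such gap, with the lowest pig 1.28-fold, 1.33-fold and 1.10-fold below the next.

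The 5 measured neighbours of *DAG1* and the 5 of *SSPN* on the chromosome showed no gap of that size in the same pigs. Near *DAG1*, however, *AMT* (0 to 0.517 CPM) and *BSN* (0.292 to 1.41 CPM) lay too close to the floor to show one. Near *DAG1*, *TCTA* was at 9.20 CPM in WT replicate 2 and between 9.04 and 12.8 CPM in the other pigs, and *NICN1* was at 4.64 CPM and between 2.55 and 6.83 CPM. Near *SSPN*, *BHLHE41* was at 5.39 CPM in UCP1 KI replicate 2 and 5.81 CPM in WT replicate 3, and between 4.71 and 7.87 CPM in the other pigs. *RASSF8* was at 46.9 CPM and 26.4 CPM in these pigs, and between 19.3 and 44.7 CPM in the others.

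**Figure D4:**
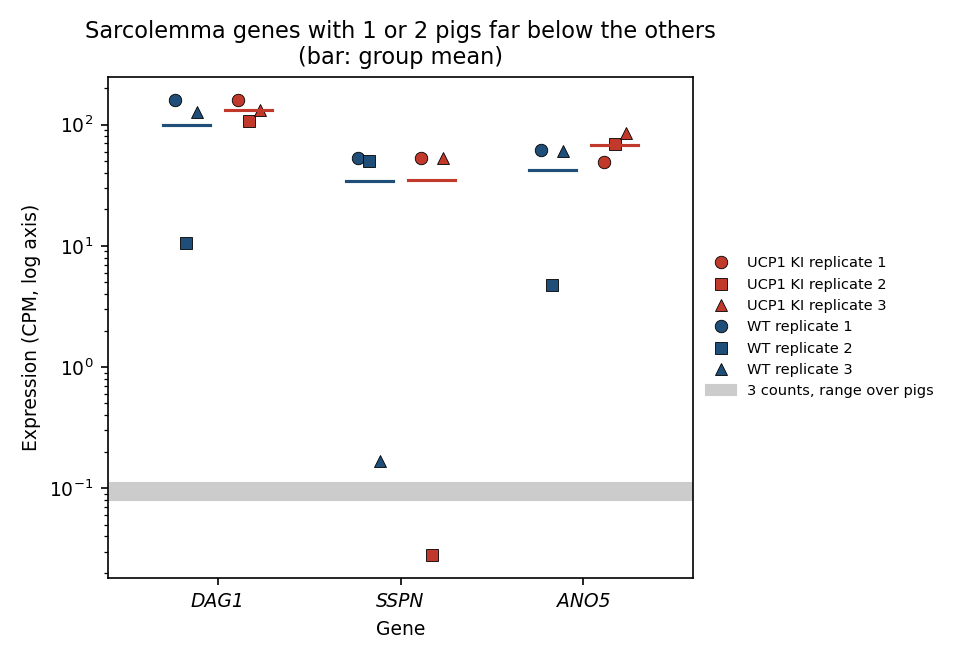
Expression of *DAG1*, *SSPN* and *ANO5* in CPM (log axis) in each pig, with red points for UCP1 KI pigs, blue points for WT pigs, marker shape for the replicate, bars for group means and a grey band at the level of 3 counts. WT replicate 2 is low for *DAG1* (10.6 CPM) and *ANO5* (4.75 CPM), and UCP1 KI replicate 2 and WT replicate 3 are low for *SSPN* (1 and 5 counts).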

How the data were processed

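RNA of longissimus dorsi from 3 UCP1 KI and 3 WT pigs was sequenced by the authors as paired-end mRNA libraries. The submitters' processing notes name FastQC 0.11.2, Trimmomatic 0.36, HISAT2 2.0, StringTie 1.3.3b, bedtools 2.26.0, DESeq2 1.12.4 and the build Sscrofa11.1. The counting program, its strand setting and the annotation release are not given in the sources used here. The authors deposited raw counts per Ensembl gene, without normalization, in 1 column per pig. The counts were joined to symbols by identifier, and 10.0% of all counts fell on genes without a symbol. These stayed in the tests. Coordinates are spans of RefSeq genes of the same assembly. No coding lengths were at hand, so levels are not compared between genes and the planned values per coding length were not made. RefSeq models of unnamed loci lie inside the spans of *DMD*, *UTRN*, *DAG1* and *DTNA*, and reads of such a locus could be counted with the gene where strand was not used.

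Counts were analysed with edgeR 4.0.16 in R 4.3.3: filterByExpr defaults, TMM factors, genotype as the only term, and the 2-sided quasi-likelihood F test over 13402 genes, with Benjamini-Hochberg adjustment over all of them. The common dispersion was 0.178. Limits of p under 0.05 and 0.5 in log2 fold change were those of the study, whose methods do not say whether its p was adjusted. Standard errors are the fold change divided by the square root of F. Exact permutation tests used the ratios or log2(CPM + 1). DESeq2 1.42.0, other scalings and filters, a replicate block and leaving out each pig were tried. The fit was tested on simulated data. With 1 library per pig, edgeR's p-values set the group difference against the spread between these 6 pigs within their groups. edgeR draws the spread of each gene toward that of all genes tested.

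All members were named; partner genes were named where called or where a role had 5 or fewer genes tested, and genes like *DMD* as the 5 closest; other partner genes with values in the text were added after their values were seen. Members and lists were chosen with earlier results of these data known. Values of some listed partner genes are not reported here, though the genes stay in the counts by role.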

Additional observations from a re-analysis of the deposited data

How the results depend on the processing

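No member was called under any alternative run: DESeq2, median-of-ratios factors, library size alone, no filter, at least 10 counts in every pig, no fold change limit, the replicate block, or leaving out each pig. Groups of 3 pigs leave wide intervals, and the median standard error of a log2 fold change over all genes was 0.36. DESeq2 called 8 partner genes (edgeR 5), adding *DES*, *ITGA7* and *LAMB2*. With library size alone the median of all genes moved from -0.02 to 0.24, and *SGCE* (0.025) and *NOS1* (0.031) turned above 0. The filter of at least 10 counts in every pig gave no value for *SSPN*, *DRP2* and *KRT8*.

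Replicate numbers are shared by the groups. After the group means were taken off, same-numbered pigs correlated at 0.02, 0.07 and 0.23 over genes, with 1 pair, replicate 3, over the limit of 0.1. UCP1 KI replicates 1 and 2 correlated best with a WT pig of another number. The log2 levels of UCP1 KI replicate 3 and WT replicate 3 correlated at 0.943, more than either did with pigs of its own genotype. Whether these pigs share a litter or a batch is not given and was not tested. With the replicate block 0 members, 5 partner genes and 1114 genes were called, *AGRN* was not called (-0.70), and *SSPN* (-0.032) and *NOS1* (0.015) changed sign. The block also moved *DAG1* from 0.42 to 1.02 and *ANO5* from 0.67 to 1.18, *UTRN* from 0.25 to 0.077, *DTNA* from 0.04 to 0.14 and the median of the members from 0.25 to 0.14, and none of these genes was called in either fit.

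Leaving out 1 pig gave 4 to 10 partner genes called, 678 to 1541 genes called in all (678 without UCP1 KI replicate 2, 718 without WT replicate 2) and 0 to 1 members without overlap, which was *DMD* without WT replicate 2 and *DTNA* without WT replicate 3. The log2 fold change then ranged from -0.44 to 0.52 for *UTRN*, -0.11 to 0.97 for *DAG1*, -0.16 to 0.51 for *DTNA*, -0.55 to 0.59 for *SSPN*, -0.74 to 0.16 for *SNTB1* and -0.57 to 0.13 for *NOS1*. Without a change of sign it ranged from -1.07 to -0.14 for *DRP2*, -0.85 to -0.20 for *SNTB2* and -0.53 to -0.05 for *SGCE*. It kept its sign for *DMD* (-0.40 to -0.09) and *SGCA* (0.07 to 0.49). The median of the members ranged from -0.11 to 0.49. Beyond what leaving a pig out shows, the cause of these shifts was not tested.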
